A study of Rattus norvegicus with 88 samples.

Results

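The miR-30 family was followed through the life of the rat liver in its 5 members on the array, rno-miR-30a, rno-miR-30b-5p, rno-miR-30c, rno-miR-30d and rno-miR-30e, named below without the prefix for rat. They were taken by name, with no threshold on a measured value, and are 5 of the 677 rat miRNAs on the array, of which 314 were detected on at least 1 array. A microRNA is a short RNA that is cut from a hairpin transcript, is loaded into an Argonaute protein and lowers the translation and stability of messenger RNAs that pair with its seed, the bases near its 5′ end. Members of the miR-30 family carry the same seed and are transcribed from pairs of neighbouring hairpins. The family is abundant in epithelial organs, has been tied to the formation of bile ducts during hepatobiliary development, and is known for restraining the transition of hepatocytes and other epithelial cells towards a mesenchymal state.

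The livers came from untreated Fischer 344 (F344) rats of both sexes, an inbred strain, taken at 2 weeks, at 5, 6, 8, 15 and 21 weeks, and at 52, 78 and 104 weeks. There were 5 animals of each sex at each age, except for 4 males at 5 weeks and 4 at 104 weeks, which gave 45 females and 43 males. RNA of a small, homogenized sample of liver from 1 animal was hybridized to each of 88 single-colour Agilent arrays, so that the spread within a group holds that between animals and between the tissue samples taken. In bulk tissue of this kind, fewer cells of a type and less RNA per cell cannot be told apart.

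The sequences are shown because the members share the bases that choose their targets and differ in those that their probes and their 3′ ends must tell apart. The capitals mark the seed (bases 2 to 8), counted from the 5′ end, and sequences and positions are those of RefSeq on the rat assembly GRCr8.
miR-30a (the -5p strand, Mir30a, chr9:33233946-33233967, plus strand): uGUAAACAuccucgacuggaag
miR-30e (the -5p strand, Mir30e, chr5:139637504-139637525, minus strand): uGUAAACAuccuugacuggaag
miR-30c (the -5p strand, Mir30c1, chr5:139634505-139634527, minus strand, and Mir30c2, chr9:33253695-33253717, plus strand): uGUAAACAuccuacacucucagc
All 3 had the seed GUAAACA and were identical over the first 12 bases. miR-30a and miR-30e were identical at 21 of 22 bases and differed by C13U. Over 22 bases miR-30c shared 17 with miR-30a (C13A, G14C, G18C, G19U and A20C from miR-30a to miR-30c) and 17 with miR-30e. The mature sequences of miR-30b-5p and miR-30d were not among those used here, and both are only named. Of 693 mature names in the RefSeq table, 4 carried this seed, the other one being miR-384-5p (chrX:74490939-74490961, minus strand), a miRNA best known from brain, which was detected on 0 of the 88 arrays. The hairpin of Mir30e lay 2906 bases from that of Mir30c1 on chromosome 5, that of Mir30a 19670 bases from that of Mir30c2 on chromosome 9, and Mir30b and Mir30d were both on chromosome 7. The same mature miR-30c can therefore come from hairpins on chromosomes 5 and 9, and its probes do not tell these sources apart.

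The other strands of the same hairpins carry different seeds and are shown because they report on the same precursors.
miR-30a* (the -3p strand, chr9:33233987-33234008, plus strand): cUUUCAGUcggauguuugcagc
miR-30c-1* (the -3p strand, chr5:139634467-139634488, minus strand): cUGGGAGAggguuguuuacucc
miR-30c-2* (the -3p strand, chr9:33253735-33253756, plus strand): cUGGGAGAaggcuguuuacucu
Each of the 5 members was detected on 88 of 88 arrays. Of the 6 other strands on the array, miR-30a* and miR-30e* were each detected on 88 arrays, miR-30c-2* on 73, miR-30b-3p on 62, miR-30c-1* on 20 and miR-30d* on 18.

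The values are normalized intensities, the total gene signal of a miRNA divided by the 75th percentile of the 314 expressed miRNAs on the same array, so that a miRNA at that percentile has the value 1 and the values have no unit. The level of one miRNA cannot be set against that of another on this scale, because probes differ in brightness. The 75th percentile itself ranged from 28.1 to 289 with a median of 62.1, and between 134 and 255 miRNAs were detected per array. The arrays fell into 5 scans by their scan times, of 1, 13, 30, 28 and 16 arrays, and the median 75th percentile was 145 in scan 5 against 48.8 to 80.0 in the others. No spot of a member was saturated. Each member was read by 2 probes with 10 spots each, and the probes of a member gave changes from 2 weeks to 5 to 21 weeks that differed by at most 0.19 on the log2 scale. Whether a probe also responds to another member of the family was not tested. The range over all arrays was 2.40 to 10.4 for miR-30a, 2.70 to 12.2 for miR-30b-5p, 1.16 to 6.76 for miR-30c, 1.62 to 8.47 for miR-30d and 1.90 to 7.02 for miR-30e.

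The first comparison asked whether the family changed between 2 weeks, before weaning, and the adult ages of 5 to 21 weeks. In males all 5 members rose, by 2.08-fold to 2.66-fold, and in females miR-30a and miR-30e rose, by 1.57-fold and 1.69-fold. These rises depend on the scaling of the arrays. With the 75th percentile of the miRNAs detected on every array no member was called in either sex, and the log2 change of miR-30a in females (-0.0181) and of miR-30d in males (-0.0377) turned negative. The change of miR-30a in females was also negative under quantile normalization (-0.18) and without scaling (-0.41), as was that of miR-30e without scaling (-0.30). A difference was called at a Benjamini-Hochberg adjusted p under 0.05 over the 314 expressed miRNAs in limma's moderated test and at least 1.5-fold. By this rule 24.2% of all expressed miRNAs were called higher in adult females and 29.6% in adult males, and 41.7% and 50.0% were called in either direction. Over all 9 ages, limma's F test with its pairwise contrasts called 4 of 5 members in females, against 57.3% of all expressed miRNAs, and 5 of 5 in males, against 54.1%. The member not called was miR-30c in females (adjusted p = 0.338). These counts were 0 and 2 with the mean of the always-detected miRNAs subtracted, 0 and 1 with the 75th percentile of those miRNAs, 2 and 0 under normexp background correction, 0 and 5 under quantile normalization and 0 and 0 without scaling.

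**Figure D1:**
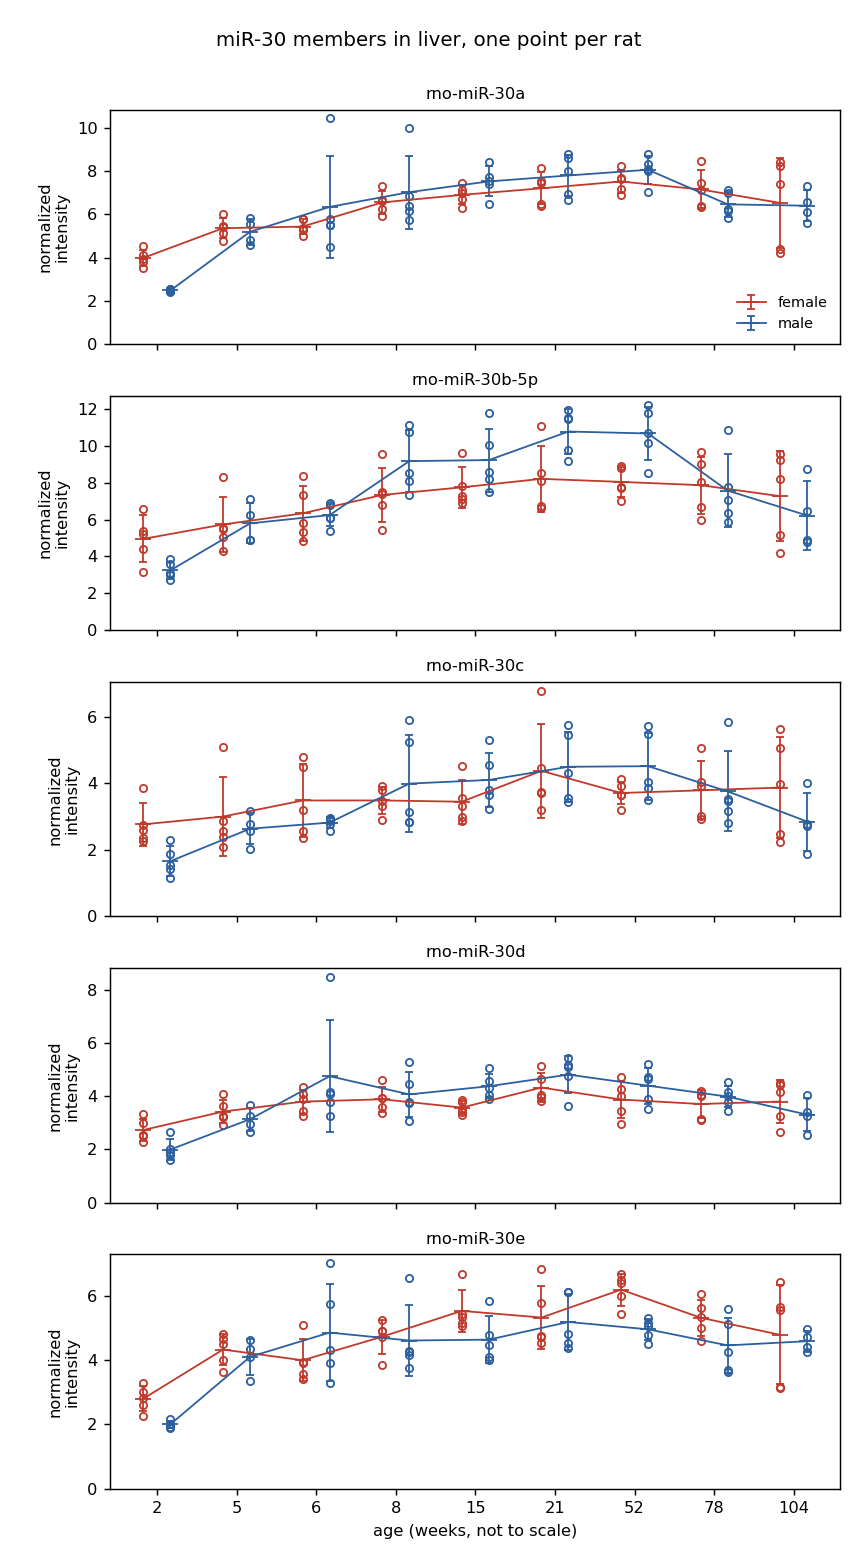
Normalized intensity (no unit, linear axis from 0) of each member by age in weeks, with ages evenly spaced and not to scale, 1 point per rat, and a line with bars of 1 SD through the group means of females and of males. In males every member has its lowest mean at 2 weeks, where miR-30a spans 2.40 to 2.55, and male miR-30b-5p reaches 9.18 to 11.9 at 21 weeks and is back at 4.78 to 8.74 at 104 weeks.

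miR-30a is known for lowering beclin 1, an initiator of autophagy. In females at 2 weeks it read 3.53, 3.81, 3.93, 4.13 and 4.53, and over the 25 adult females it ranged from 4.76 through a median of 6.28 to 8.13. In males it read 2.40, 2.45, 2.47, 2.53 and 2.55 at 2 weeks, and 4.51 through 6.58 to 10.4 over the 24 adults. The 2-week and adult arrays did not overlap in either sex, and the 2-week males were the tightest group of the family, with 2.48 ± 0.0599 (SD, n = 5). The difference in mean log2 value was 0.65 ± 0.10 (SE, adjusted p = 4.62e-07 in limma) in females and 1.41 ± 0.11 (adjusted p = 5.13e-14) in males.

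miR-30e differs from miR-30a by a single base and is cut from the hairpin next to that of Mir30c1. At 2 weeks the females read 2.25, 2.61, 2.82, 3.01 and 3.30, and the adult females 3.42 through a median of 4.75 to 6.82. The males read 1.90, 1.92, 2.01, 2.02 and 2.17 at 2 weeks and 3.27 through 4.35 to 7.02 as adults. As with miR-30a, no 2-week array reached the lowest adult of its sex. The difference was 0.76 ± 0.12 (SE, adjusted p = 6.06e-07 in limma) in females and 1.19 ± 0.12 (adjusted p = 5.59e-11) in males.

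miR-30b-5p, which in cultured hepatocytes is known for repressing the mesenchymal regulator Snail, read 3.15, 4.40, 5.22, 5.40 and 6.59 in 2-week females, and 4.30 through a median of 7.14 to 11.05 in adult females. In males it read 2.70, 2.98, 3.12, 3.60 and 3.85 at 2 weeks and 4.90 through 8.16 to 11.9 in adults. The female groups overlapped and the male groups did not. The female difference of 0.52 ± 0.16 (SE, adjusted p = 0.00637 in limma) passed the test but not the fold limit, and the male difference was 1.30 ± 0.13 (adjusted p = 1.86e-11).

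miR-30c is known for lowering the microsomal triglyceride transfer protein, which loads lipid onto apolipoprotein B in hepatocytes. It read 2.26, 2.36, 2.60, 2.75 and 3.85 in 2-week females, and 2.09 through a median of 3.32 to 6.76 in adult females. In males it read 1.16, 1.42, 1.55, 1.87 and 2.31 at 2 weeks and 2.04 through 3.20 to 5.90 in adults. The female groups overlapped over most of their range, and the male groups only through the highest 2-week male and the lowest 5-week male. The difference was 0.34 ± 0.19 (SE, adjusted p = 0.131 in limma) in females and 1.10 ± 0.17 (adjusted p = 8.44e-07) in males. miR-30c also had the widest spread of the family, with a within-group SD of 0.37 on the log2 scale against 0.30 for miR-30b-5p, 0.25 for miR-30d, 0.25 for miR-30e and 0.21 for miR-30a.

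miR-30d, which shares chromosome 7 with miR-30b-5p and is known in melanoma for its role in invasion, read 2.26, 2.52, 2.55, 2.98 and 3.33 in 2-week females and 2.93 through a median of 3.81 to 5.14 in adult females. In males it read 1.62, 1.81, 1.90, 2.02 and 2.64 at 2 weeks and 2.65 through 4.07 to 8.47 in adults. The female groups overlapped, and the male groups were parted by 0.01 at their nearest arrays. The female difference was 0.48 ± 0.10 (SE, adjusted p = 1.38e-04 in limma) and did not reach 1.5-fold, and the male difference was 1.06 ± 0.14 (adjusted p = 1.85e-08).

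These changes were close to the shift of the miRNAs that were detected on all 88 arrays. The median change of those 103 miRNAs between 2 weeks and the adult ages was 0.52 on the log2 scale in females, with 84 of 103 above 0, and 0.98 in males, with 92 of 103 above 0. Beyond that median the members differed by -0.18 (miR-30c) to 0.24 (miR-30e) in females and by 0.08 (miR-30d) to 0.43 (miR-30a) in males. Their places among the 103 ran from percentile 34.0 for miR-30c to 67.0 for miR-30e in females and from 55.3 for miR-30d to 81.6 for miR-30a in males. When the mean of the 103 miRNAs was subtracted from each array in place of the 75th percentile, no member was called in either sex: the differences were 0.14 to 0.49 in males and 0.19 for miR-30e and 0.08 for miR-30a in females, while those of miR-30b-5p (-0.05), miR-30c (-0.23) and miR-30d (-0.09) in females turned negative. Within scans, the difference on the 75th percentile scale was above 0 for all 5 members in every scan that held both classes. For miR-30a it was 0.49, 0.77 and 0.90 in females in scans 2, 4 and 5 and 1.25, 1.44 and 1.45 in males in scans 3, 4 and 5. The 2-week class was 1 female in scan 2 and 1 male in each of scans 4 and 5. The members of an array share its scaling, so that their agreement is not independent.

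**Figure D2:**
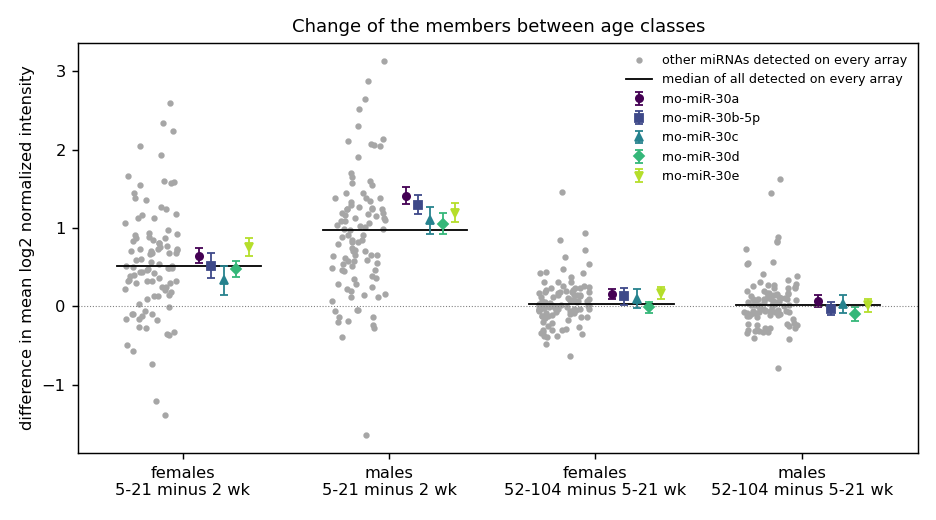
Difference in mean log2 normalized intensity between age classes (adult, 5 to 21 weeks, minus 2 weeks, and old, 52 to 104 weeks, minus adult) in females and males, with a point for each member with its standard error and the always-detected miRNAs behind them as a background. The members lie at 0.34 to 0.76 in females and 1.06 to 1.41 in males for the first difference, around medians of 0.52 and 0.98 of the 103 miRNAs, and between -0.10 and 0.17 for the second.

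Marker miRNAs of several cell types moved over the same interval, and their part in the result was not tested. The 3 hepatocyte markers (miR-122, miR-192 and miR-194) were all called higher in adults of both sexes, and their summed normalized intensity went from 560 to 674 in 2-week females to 653 to 1289 in adult females, and from 399 to 429 in 2-week males to 634 to 1272 in adult males. miR-122, the hepatocyte miRNA, rose by 0.61 in females and 1.17 in males on the log2 scale. Of 6 blood markers, 5 were called higher in females and 6 in males, with sums of 7.68 to 10.8 at 2 weeks and 11.9 to 27.5 in adult females, and of 6.11 to 11.9 and 14.8 to 31.6 in males. Of 5 biliary markers of the miR-200 family, 3 were called lower in females and 0 in males, with sums of 3.26 to 4.22 against 0.570 to 4.22 in females and 2.54 to 3.71 against 1.08 to 5.26 in males, and 1 of the 5 was undetected on every 2-week array. Of 6 mesenchymal and endothelial markers, 0 were called in females and 1 in males, higher, with sums of 27.2 to 34.2 and 26.0 to 44.1 in females and of 24.5 to 27.9 and 27.2 to 41.0 in males. Of 5 skeletal muscle markers, 1 was called higher in females and 0 in males, and their sums reached from 0.0601, where none was detected, to 21.2 in adult females and 65.6 in adult males. In the list of 15 hepatobiliary miRNAs, which holds the hepatocyte and biliary markers, 6 were called higher and 3 lower in females and 8 higher and 0 lower in males, with medians of 0.50 and 0.65 on the log2 scale. The family's medians were 0.52 and 1.19, beside 0.13 and 0.13 over all 314 miRNAs.

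The next comparison asked what became of the family in old age, at 52, 78 and 104 weeks. None of the 5 members was called against the adult ages in either sex, where 5.41% of all expressed miRNAs were called in females and 5.73% in males. The lowest adjusted p in limma was 0.117, and miR-30a and miR-30e in females and no member in males (2 and 0 of 5) had an unadjusted p under 0.05. The differences in females were 0.15 ± 0.07 for miR-30a, 0.13 ± 0.11 for miR-30b-5p, 0.10 ± 0.12 for miR-30c, -0.01 ± 0.07 for miR-30d and 0.17 ± 0.08 for miR-30e (log2, SE). In males they were 0.07 ± 0.08, -0.03 ± 0.09, 0.03 ± 0.12, -0.10 ± 0.09 and 0.02 ± 0.08 in the same order. The old females ranged from 4.22 through 7.42 to 8.49 for miR-30a and from 3.13 through 5.61 to 6.66 for miR-30e, which covers nearly the adult range. Among females the spread of both was widest at 104 weeks, with miR-30a at 4.22, 4.38, 7.42, 8.23 and 8.40, and miR-30e at 3.13, 3.14, 5.54, 5.65 and 6.42. The lower pair of animals lay near the 2-week females for both miRNAs, the other 3 among the 52-week and 78-week females.

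A mean over 3 old ages can hide movement between them, and single ages were therefore compared as well. Over the 28 contrasts between pairs of ages from 5 to 104 weeks, 1 of 140 member contrasts was called in females (1 to 6 with 1 array left out), against 6.09% of contrasts over all expressed miRNAs. In males 14 of 140 were called (9 to 18 with 1 array left out), against 4.07%. These contrasts belonged to 1 of 5 members in females and 4 of 5 in males, where 29.9% and 22.6% of all expressed miRNAs had at least 1 such contrast. In females it was miR-30e at 52 weeks, with 5.42, 5.97, 6.39, 6.47 and 6.66, against 3.42, 3.57, 3.91, 3.95 and 5.09 at 6 weeks (log2 difference 0.64 ± 0.15, SE, adjusted p = 0.00218 in limma), where 16.6% of all expressed miRNAs were called. It was past the test but under 1.5-fold with the mean of the always-detected miRNAs subtracted (0.46) and under quantile normalization (0.42), and not past the test with the 75th percentile of the always-detected miRNAs (0.35, adjusted p = 0.174) or of all miRNAs (-0.00130, adjusted p = 1.0). Of the 14 in males, 10 were those of miR-30b-5p. The other 4 were miR-30a at 52 against 5 weeks (0.64), miR-30c at 21 and at 52 against 5 weeks (0.76 and 0.77) and miR-30d at 21 against 5 weeks (0.61), and none belonged to miR-30e. Each of these 4 was lost with 1 array left out. That of miR-30a was lost without 5-week male 3 (0.58). That of miR-30c at 21 weeks was lost without 21-week male 5 or 6 or 5-week male 3 or 4 (0.64 to 0.75) and at 52 weeks without 52-week male 1 or 6 or 5-week male 3 (0.65 to 0.69). That of miR-30d was lost without 21-week male 1 or 5 or 5-week male 3 or 6 (0.54 to 0.59). Age and scan were partly mixed here, since scan 2 held 21-week males 5 and 6 and 52-week males 1 and 6 but no male of 5, 6 or 104 weeks. In scan 2 miR-30c averaged 0.50 above the group means. With the scan as a block, 5 member contrasts were called in males.

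In males miR-30b-5p rose through the adult ages and was lower again at 104 weeks. It read 4.90, 4.92, 6.23 and 7.13 at 5 weeks, and 5.40, 6.07, 6.07, 6.77 and 6.92 at 6 weeks. At 21 weeks it read 9.18, 9.75, 11.5, 11.5 and 11.9, and at 52 weeks 8.52, 10.1, 10.68, 11.8 and 12.2. At 78 weeks it read 5.86, 6.35, 7.04, 7.77 and 10.8, and at 104 weeks 4.78, 4.88, 6.48 and 8.74. Every male of 21 weeks thus lay above every male of 5, 6 and 104 weeks, and the 52-week males overlapped only with the highest 104-week male. The log2 difference from 5 weeks was 0.66, 0.67, 0.91 and 0.89 at 8, 15, 21 and 52 weeks, all with a SE of 0.17 (lowest adjusted p = 1.80e-04 in limma, at 21 weeks), where 2.87%, 10.5%, 10.8% and 11.1% of all expressed miRNAs were called. From 6 weeks it was 0.78 at 21 weeks and 0.77 at 52 weeks, where 5.10% and 7.01% were called. At 104 weeks the level was below that at 8, 15, 21 and 52 weeks by differences of -0.59, -0.60, -0.83 and -0.81 (adjusted p = 0.00240 against 21 weeks and 0.00408 against 52 weeks), where 5.73%, 6.05%, 4.46% and 1.91% of all expressed miRNAs were called. The decline from 52 to 104 weeks was not called without the 104-week male number 2, when it was -0.70 (adjusted p = 0.0586). The fall from 8 weeks was not called without 104-week male 2 or 3 or 8-week male 2 or 5 (-0.52 to -0.47), nor that from 15 weeks without 104-week male 2 or 3 or 15-week male 4 or 6 (-0.56 to -0.48). The rise from 5 to 8 weeks was not called without 5-week male 3 or 4 (0.59), nor that to 15 weeks without 15-week male 6 (0.58). The contrasts with 21 weeks and the rises to 52 weeks were called with any array left out. Leaving out 1 array cannot take out a scan, and scan 2 held 21-week males 5 and 6 and 52-week males 1 and 6. It held no male of 5, 6 or 104 weeks, and in it miR-30b-5p averaged 0.34 above the group means.

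**Figure D3:**
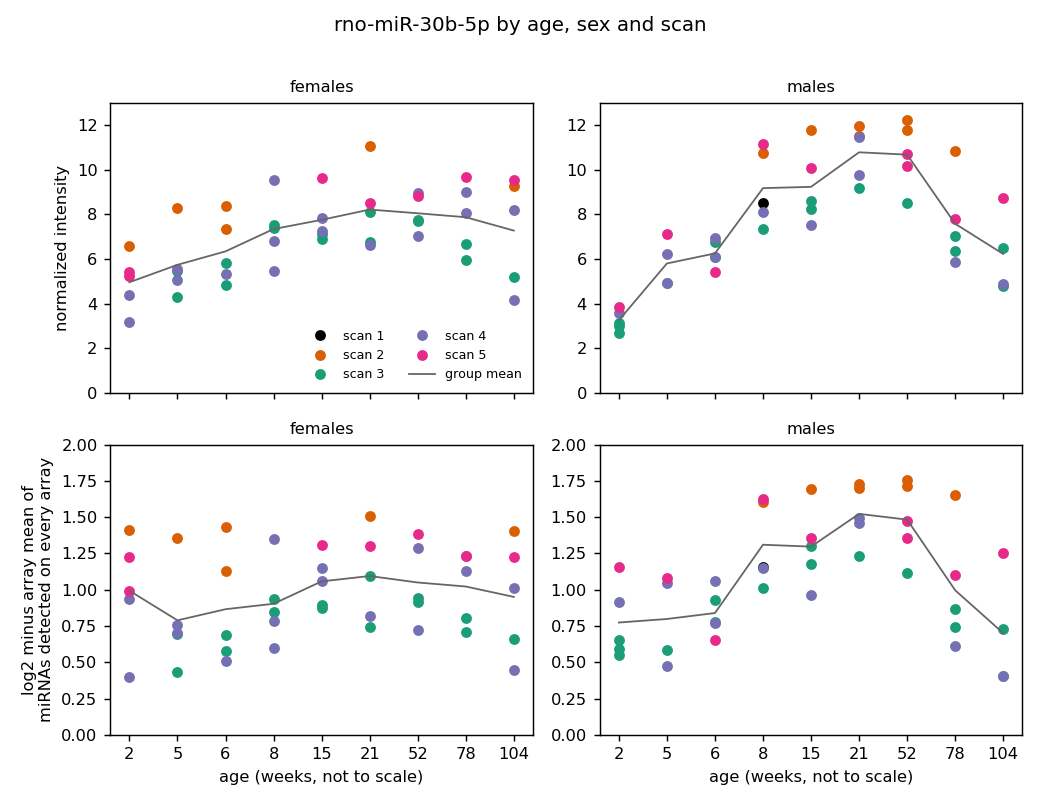
miR-30b-5p by age in weeks (evenly spaced, not to scale) in females and males, with 1 point per rat, a symbol for each scan and a line through the group means; the upper panels show the normalized intensity (no unit) and the lower panels the log2 value relative to the mean of the 103 always-detected miRNAs of the same array. The males of 21 weeks, at 9.18 to 11.9, lie above those of 5 weeks, at 4.90 to 7.13, and of 104 weeks, at 4.78 to 8.74, also among arrays of the same scan.

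Within a scan the same order was seen in the few arrays that allow it. The single male of 21 weeks in scan 3 read 9.18, the single one of 5 weeks 4.92 and the pair of 104 weeks 4.78 and 6.48, and in scan 4 the males of 21 weeks read 9.75 and 11.5, those of 5 weeks 4.90 and 6.23 and that of 104 weeks 4.88. The differences from 5 to 21 weeks were 0.90 and 0.94 in these scans, and from 21 to 104 weeks -0.72 and -1.12. From 52 to 104 weeks they were -0.62 in scan 3 and -0.25 in scan 5. With the scan as a block the rise from 5 to 21 weeks was 0.80 and still called, and the fall from 52 to 104 weeks was -0.58, past the test (adjusted p = 0.00879) but just under 1.5-fold. With the mean of the always-detected miRNAs subtracted the rise was 0.72 and the fall -0.78, and both were called. With that scaling the rises to 8 and 15 weeks (0.51 and 0.50) were not called. Under normexp background correction, in signals without any scaling and with the 75th percentile of all miRNAs no contrast of male miR-30b-5p between 5 and 104 weeks was called, and with the scan block and the mean subtracted together 1 was, from 21 to 104 weeks. Under normexp and without scaling the rise from 5 to 21 weeks was 0.16 (adjusted p = 0.736) and -0.15, and the fall from 52 to 104 weeks -0.41 (adjusted p = 0.994) and -0.52 (adjusted p = 1.0). With the 75th percentile of all miRNAs they were 1.05 (adjusted p = 0.372) and -1.57 (adjusted p = 0.156).

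In females miR-30b-5p read 4.30, 5.04, 5.47, 5.56 and 8.30 at 5 weeks, 6.64, 6.76, 8.08, 8.51 and 11.05 at 21 weeks, 7.02, 7.69, 7.76, 8.81 and 8.93 at 52 weeks and 4.17, 5.18, 8.20, 9.25 and 9.54 at 104 weeks. Apart from 1 animal, the 5-week females lay below all of those of 21 and 52 weeks, the other groups overlapped, and no contrast between 5 and 104 weeks was called. The female calls depended on single arrays. Counted over all members, 6 female contrasts between these ages were called without 5-week female 6, against 1 with every array. That the change differs between the sexes was not shown. The male change minus the female change was 0.38 (adjusted p = 0.751 in limma) from 5 to 21 weeks, -0.60 (unadjusted p = 0.0314, adjusted p = 0.328) from 21 to 104 weeks and -0.60 (adjusted p = 0.288) from 52 to 104 weeks, in a test added after the values had been seen.

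Males and females were then compared at each age. In males at 2 weeks miR-30a was lower by 0.68 ± 0.14 on the log2 scale (SE, adjusted p = 3.52e-05 in limma, difference -0.68) and miR-30c by 0.75 ± 0.23 (adjusted p = 0.00842, difference -0.75), and these 2 of 5 members were called where 18.8% of all expressed miRNAs were called at 2 weeks and 37.3% at 1 or more ages. For miR-30a no male reached the lowest female, while for miR-30c the highest male (2.31) lay just above the lowest female (2.26). The other members differed the same way, by -0.58 for miR-30b-5p, -0.46 for miR-30d and -0.47 for miR-30e, with adjusted p = 0.0130, 0.0184 and 0.0138, and were under 1.5-fold. The median over the 103 always-detected miRNAs was -0.36 at this age. Neither difference was called with the scan as a block (-0.54 and -0.45) or with the mean of the always-detected miRNAs subtracted (-0.32 and -0.39), nor was any member with the 75th percentile of the always-detected miRNAs or without scaling. Of the marker lists at 2 weeks, 1 of 3 hepatocyte, 1 of 6 blood, 2 of 15 hepatobiliary and 0 of the biliary, mesenchymal and muscle markers were called, all lower in males.

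From 5 to 104 weeks no member was called between the sexes at any age in limma. Of all expressed miRNAs, 0.00%, 0.637%, 5.10%, 9.24% and 6.05% were called at 5, 6, 8, 15 and 21 weeks and 6.69%, 3.82% and 4.46% at 52, 78 and 104 weeks. The 40 differences of the members lay between -0.40 and 0.41, and 3 had an unadjusted p under 0.05. The largest was that of miR-30b-5p, 0.41 at 21 weeks (adjusted p = 0.281) and 0.40 at 52 weeks (adjusted p = 0.218). The rise from 2 weeks to the adult ages was larger in males than in females for all 5 members in the test of the interaction, by 0.76 for miR-30a, 0.78 for miR-30b-5p, 0.76 for miR-30c, 0.58 for miR-30d and 0.43 for miR-30e (adjusted p = 2.22e-05, 0.00198, 0.0170, 0.00690 and 0.0447 in limma), where 29.9% of all expressed miRNAs were called. The median interaction of the 103 always-detected miRNAs was 0.32. With their mean subtracted only miR-30a was called (0.41, adjusted p = 0.0343), no member was with the 75th percentile of those miRNAs or of all miRNAs, under normexp or without scaling, and that of miR-30e was called no longer with the scan as a block (0.23, adjusted p = 0.255). The interaction of miR-30c was lost without 2-week female 6 or 2-week male 4 (0.63 and 0.64). That of miR-30e was lost with any of 25 of the 88 arrays left out. Of these, 7 were 2-week females 1, 5 and 6 and 2-week males 1, 2, 3 and 4 (0.37 to 0.44, adjusted p up to 0.134), and the other 18 were adults (0.40 to 0.43, adjusted p up to 0.0554). For the change from adult to old the interaction was called for 0 of 5 members, against 3.18% of all expressed miRNAs, and none had an unadjusted p under 0.05 in limma.

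Of the other strands, miR-30a* and miR-30e* were detected on every array. miR-30a* rose by 0.60 ± 0.12 (log2, SE) from 2 weeks to the adult ages in females and by 1.27 ± 0.16 in males, beside 0.65 and 1.41 for miR-30a. miR-30e* rose by 0.92 ± 0.16 in males and differed by 0.54 ± 0.12 in females, under 1.5-fold, beside 1.19 and 0.76 for miR-30e. The other 4 strands, undetected on 15 to 70 of the 88 arrays, were not called between these classes in either sex, and 0 of the 6 were called between the adult and the old ages in limma, beside 5.41% and 5.73% of all expressed miRNAs, with 1 in females (miR-30c-2*, 0.75, adjusted p = 0.0789) and 0 in males at an unadjusted p under 0.05. By limma's F test over the 9 ages, miR-30a*, miR-30e* and miR-30c-2* were called in females (3 of 6) and miR-30a* and miR-30e* in males (2 of 6), beside 57.3% and 54.1%. Of the 28 contrasts between 5 and 104 weeks, 11 were called for miR-30c-2* and 1 for miR-30b-3p in females, and 3 for miR-30a* and 2 for miR-30e* in males. Female miR-30c-2* was detected on 3 of 5 arrays at 5 weeks and on 2 of 5 at 6 weeks, and on 5 of 5 at each other age, where it read 0.0620 to 0.193, so that its values at 5 and 6 weeks rest in part on the value given to undetected miRNAs.

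The ratio of 2 members on the same array cannot be moved by the scaling of that array, and shows only that they changed unequally. Over the 10 pairs of members, both sexes and both changes of age class, 0 of 40 ratios differed after Benjamini-Hochberg adjustment over the 40 tests. The nearest was miR-30a over miR-30d in males, whose log2 ratio was 0.33 ± 0.24 (SD, n = 5) at 2 weeks and 0.69 ± 0.21 (SD, n = 24) in adults (exact permutation test, two-sided, p = 0.00275, adjusted p = 0.110). Of the 40, 6 had an unadjusted p under 0.05 in the permutation tests. Between the sexes, in 30 tests that were added after the values had been seen, 2 ratios differed (2 to 6 with 1 array left out). In old rats the log2 ratio of miR-30a over miR-30e averaged 0.59 ± 0.14 in 14 males and 0.39 ± 0.12 in 15 females (SD, 100000 permutations, two-sided, p = 0.00102, adjusted p = 0.0189), and was higher in males at 3 of 3 ages and by 0.11 to 0.27 within each of 4 scans. In adults that of miR-30b-5p over miR-30c averaged 1.20 ± 0.18 in 24 males and 1.01 ± 0.21 in 25 females (SD, 100000 permutations, two-sided, p = 0.00126, adjusted p = 0.0189), higher in males at 4 of 5 ages and in 3 of 4 scans. Neither passed under normexp background correction.

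**Figure D4:**
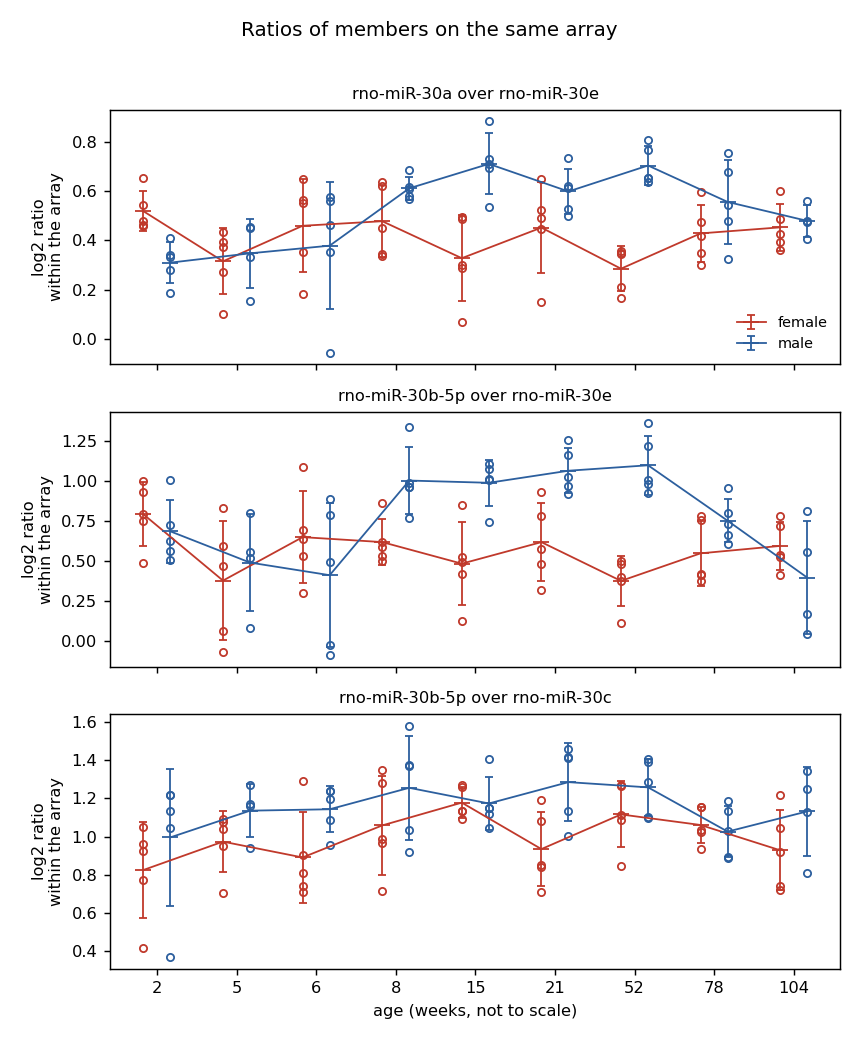
Log2 ratio of pairs of members on the same array by age in weeks (evenly spaced, not to scale), with 1 point per rat and a line with bars of 1 SD through the group means of females and of males. Male miR-30b-5p over miR-30e averages 1.10 at 52 weeks, above all females of that age, and 0.40 at 104 weeks.

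At single ages the sexes did not overlap in 6 of 90 ratios, all of them with miR-30e as the second member. These ratios are not independent, since they share miR-30e and, within an age, the same arrays. The share without overlap among ratios of other expressed miRNAs was not counted. miR-30a over miR-30e ran from 0.18 to 0.41 in males and 0.46 to 0.65 in females at 2 weeks, but from 0.53 to 0.88 and 0.07 to 0.49 at 15 weeks and from 0.64 to 0.81 and 0.16 to 0.36 at 52 weeks, so that the order of the sexes was turned between 2 weeks and these later ages. At 52 weeks miR-30b-5p over miR-30e ran from 0.93 to 1.36 in males and 0.12 to 0.50 in females, and miR-30c over miR-30e from -0.41 to 0.26 and -0.87 to -0.63. Scan 2 held 52-week males 1 and 6 but no 52-week female. Within scans 2, 3, 4 and 5, old males minus old females were 0.65, 0.16, -0.10 and 0.20 for miR-30b-5p over miR-30e. For miR-30c over miR-30e they were 0.34, 0.09, 0.04 and -0.03. At 15 weeks miR-30d over miR-30e ran from -0.24 to 0.20 in males and -0.92 to -0.42 in females. Each had p = 0.00794 in an exact two-sided permutation test, the smallest that 5 against 5 arrays can give, and none passed adjustment over the 90 tests (adjusted p = 0.119). Over the ages the male mean of miR-30b-5p over miR-30e was 0.49 and 0.41 at 5 and 6 weeks, 0.99 to 1.10 from 8 to 52 weeks, 0.75 at 78 weeks and 0.40 at 104 weeks, while the female means lay between 0.38 and 0.79 throughout.

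Finally, the members were compared by how they varied between animals of one age and sex. Deviations from the group means correlated most for miR-30b-5p with miR-30c (Pearson r = 0.84 over 88 arrays) and for miR-30a with miR-30e (0.83). The latter are the closest pair among the 3 members whose sequences were used. How near miR-30b-5p and miR-30d are in sequence to the other members was not compared. The pairs that are neighbours in the genome had 0.60 for miR-30e with miR-30c, 0.67 for miR-30a with miR-30c and 0.40, the lowest of the 10 pairs, for miR-30b-5p with miR-30d. The points share the scaling and the scan of their arrays. In scan 2 the deviations of miR-30c and miR-30b-5p averaged 0.54 and 0.38 above those of the always-detected miRNAs, and in scan 3 they averaged -0.25 and -0.17. With the scan means removed as well, r was 0.64 for miR-30b-5p with miR-30c, 0.73 for miR-30a with miR-30e, 0.73 for miR-30a with miR-30d and 0.63 for miR-30c with miR-30d, and among the neighbours 0.49 for miR-30a with miR-30c, 0.25 for miR-30e with miR-30c and 0.35 for miR-30b-5p with miR-30d. The strands of one hairpin varied together little, with 0.19 for miR-30a with miR-30a* and -0.03 for miR-30e with miR-30e* (0.34 and 0.11 with scan means removed), while miR-30a* with miR-30e* had 0.81 with and without the scan means removed. miR-30c had 0.18 with miR-30e* and 0.14 with miR-30a*, and 0.65 and 0.52 with scan means removed, which is above several pairs of members.

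**Figure D5:**
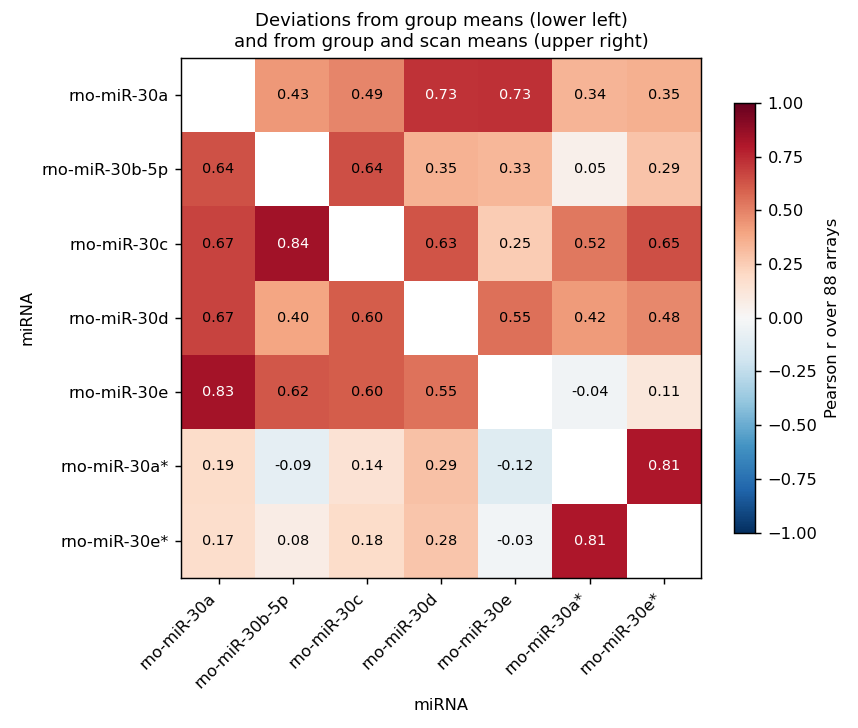
Pearson correlation over 88 arrays between the log2 deviations of the 5 members, miR-30a* and miR-30e*, from group means in the lower left triangle and from group and scan means in the upper right triangle. In the lower left the members have 0.40 to 0.84 with each other and -0.12 to 0.29 with the starred strands, while in the upper right these ranges overlap, at 0.25 to 0.73 and -0.04 to 0.65.

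Over the 18 group means, the miRNAs most like each member were taken from those detected on every array, with the other members left out. Some members lay closer than miRNAs named below, with r = 0.955 for miR-30b-5p with miR-30c, 0.917 for miR-30a with miR-30c and 0.912 for miR-30a with miR-30d. miR-26a was first for miR-30a (r = 0.97), miR-30b-5p (0.95) and miR-30c (0.95), followed by miR-192 and miR-122 for miR-30a, by miR-30a* and miR-192 for miR-30b-5p and by miR-150 and miR-122 for miR-30c. miR-324-3p was first for miR-30d (0.97), before miR-22 and miR-30a*, and miR-140* for miR-30e (0.96), before miR-378 and miR-186. These correlations carry the shift between 2 weeks and later ages that most miRNAs share. After the mean of the always-detected miRNAs was subtracted, the first that are no member were miR-192 for miR-30a (0.87), miR-26a for miR-30b-5p (0.86) and miR-30c (0.79), miR-324-3p for miR-30d (0.88) and miR-365 for miR-30e (0.79). Among the members, miR-30c had 0.83 with miR-30b-5p.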

How the data were processed

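The authors deposited, for each array, the output of Agilent Feature Extraction, in which the total gene signal is a linear intensity with the background subtracted and undetected miRNAs carry the code 0.1. They also deposited a table of ratio values, the signal divided by the 75th percentile of each array. The 75th percentile was taken here over the 314 of 677 miRNAs detected on at least 1 array (363 were discarded), as in the study's methods, the lowest normalized value measured (0.0120) was given to undetected miRNAs, and all were log2-transformed. Of 15763 detected values, 1 differed from the deposited table by more than 0.01 percent.

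Tests were run across the 314 miRNAs with lmFit and eBayes of limma 3.58.1 under R 4.3.3, within a sex for ages and over all 88 arrays in 18 groups for the sexes and interactions, with p-values adjusted by Benjamini and Hochberg, a limit of 0.05 and, except for interactions, at least 1.5-fold. Age classes were 2 weeks, 5 to 21 weeks and 52 to 104 weeks. Ratios of members were compared by permutation, exact where 2-week arrays or single ages were compared and by 100000 permutations otherwise (20000 with an array left out). Scans were parted where over 8 hours lay between arrays. The labels do not give batches. For normexp (offset 50) the median spot signal was used, since the files used here hold no mean signal. Other settings are given in the closing section. The number of arrays per group limits the precision. The scripts were tested on simulated data. Python 3.11.15, numpy 2.4.6, pandas 2.3.3, scipy 1.17.1 and matplotlib 3.10.9 served for the other steps.

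The named miRNAs were the 5 members, the other strands of their hairpins and, for each member, 3 miRNAs that are no member. These 3 had the highest correlation over group means among such miRNAs detected on every array. Markers of hepatocytes, biliary epithelium, blood, mesenchyme and endothelium, and skeletal muscle, and a hepatobiliary list, were given by counts and sums, apart from miR-122. The family and the lists were chosen for description with earlier results of these data known, and the members of the family then by name. Sequences came from RefSeq, where 3 of 5 members matched.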

Additional observations from a re-analysis of the deposited data

Results flagged for a closer look

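In 3 of 90 groups of a member's log2 values, 1 array stood far above the others by Dixon's test at the 95% level, where chance marks about 1 in 20 groups. On the linear scale it was 7 of 90, these 3 and miR-30a in 6-week male 5 and in 8-week male 2 (9.98 against 6.84), and miR-30c in 5-week female 6 (5.09 against 2.87) and in 78-week male 6 (5.84 against 3.54). The values given here are normalized intensities. miR-30d read 8.47 in 6-week male 5 against 4.16 in the next animal, miR-30e 6.66 in 15-week female 4 against 5.43, and miR-30e 6.55 in 8-week male 2 against 4.29. On the array of 6-week male 5 (scan 4) miR-30a read 10.4 against 4.51 to 5.77 in the other 4 males and miR-30e 7.02 against 3.27 to 5.72, while miR-30c at 2.93 lay within the others' 2.57 to 2.95. Relative to the always-detected miRNAs of its array, miR-30d was 1.24 above the mean of the other males on the log2 scale, miR-30a 1.07, miR-30e 0.82, miR-30b-5p 0.28 and miR-30c 0.16, and of 103 such miRNAs 4, 5, 7, 23 and 31 stood higher. The cause was not tested.

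The change from 2 weeks to 5 to 21 weeks differed between the sexes for every member, larger in males by 0.76 for miR-30a, 0.78 for miR-30b-5p, 0.76 for miR-30c, 0.58 for miR-30d and 0.43 for miR-30e on the log2 scale (limma's interaction test), beside a median of 0.32 over the always-detected miRNAs. With the mean of those miRNAs subtracted miR-30a alone was called (0.41), and with 1 array left out miR-30c was called no longer for 2 and miR-30e for 25 of the 88 arrays.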

How the results depend on the processing

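Counts below are of members called, in the order females and males from 2 weeks to the adult ages, between the sexes, by age in females and males, and with a differing age change. They were 2, 5, 2, 4, 5 and 5, and were 2, 5, 2, 4, 5 and 5 with the deposited table, with miRNAs detected on every array only and with the replicate number as a block (replicate block). They were 2, 5, 3, 4, 5 and 4 with mean processed signals, 2, 5, 2, 4, 5 and 4 with the slide as a random block, 3, 5, 2, 4, 5 and 3 with the design file version as a block and 3, 5, 0, 5, 5 and 4 with the scan as a block. They were 0, 2, 1, 0, 5 and 4 under quantile normalization, 0, 0, 0, 0, 2 and 1 with the mean of the always-detected miRNAs subtracted, 0, 0, 0, 0, 1 and 0 with the 75th percentile of those miRNAs, 5, 5, 5, 2, 5 and 0 with that of all miRNAs, 0 throughout without scaling, and 0, 0, 1, 2, 0 and 0 under normexp. With the scan as a block and the mean subtracted, chosen after seeing the data, they were 0, 0, 0, 1, 1 and 0. The count between adult and old ages was 0 in both sexes under each of these. Member contrasts called between 5 and 104 weeks in females and males (1 and 14) were 1 and 5 with the scan block, 1 and 8 with the design file block, 2 and 12 with the replicate block, 3 and 19 with mean processed signals, 0 and 6 under quantile normalization, 0 and 8 with the mean subtracted, 0 and 3 and 0 and 0 with the 75th percentiles of always-detected and of all miRNAs, 9 and 0 without scaling, 14 and 0 under normexp, and 0 and 1 with the scan block and the mean subtracted. Sex differences in ratios were 0 under normexp and 2 with mean processed signals, and no ratio was called between age classes under either. Differences of ratios within scans are values without a test.

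No pairing by replicate number was assumed, since the labels tie them to no shared litter or day and not every couple of arrays correlated above 0.1 (17 of 33 couples of opposite sex with the same age and number, and 70 of 182 with other numbers), and the block left 27 of 29 called values called.

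A called value turned, or a value that was not called was called in the other direction, in these cases (log2), while 131 further changes of sign had no call on either side. With the 75th percentile of the always-detected miRNAs, the change from 2 weeks to adult was -0.0181 for female miR-30a and -0.0377 for male miR-30d. With that of all miRNAs, female miR-30e from 6 to 52 weeks was -0.00130, and miR-30e at 8 weeks, not called otherwise, was 1.34 higher in males. Under quantile normalization female miR-30a was -0.18. Without scaling, the change to adult was -0.41 and -0.30 for female miR-30a and miR-30e and -2.70e-06 for male miR-30d, that from 5 weeks in males -0.41 at 15 and -0.15 at 21 weeks for miR-30b-5p and -0.30 and -0.44 at 21 weeks for miR-30c and miR-30d, and male miR-30b-5p from 15 to 104 weeks 0.19. Under normexp, male miR-30b-5p was -0.28 and -0.0811 from 5 to 8 and 15 weeks and 0.24 and 0.0411 from 8 and 15 to 104 weeks, and male miR-30d was -0.0444 from 5 to 21 weeks. With the scan block and the mean subtracted, the sex difference of the change of miR-30e was -0.14. The cause was not tested. Of 940 results of values that were not called, 12 became called.

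With 1 array left out, the counts were 2 to 3 and 5 to 5 from 2 weeks to adult, 0 to 0 in both sexes from adult to old, 2 to 3 between the sexes, 3 to 4 and 5 to 5 by age, 3 to 5 for the differing age change (3 without 2-week female 6 or 2-week male 4), 1 to 6 (6 without 5-week female 6) and 9 to 18 (9 without 5-week male 3) for contrasts between 5 and 104 weeks, 0 to 1 for ratios between age classes (1 without 6-week male 5) and 2 to 6 for the sexes (5 to 6 without 104-week female 8, 104-week males 2 or 3, 5-week male 1, 6-week female 1 or 6-week male 1). Detection limited 4 of the other strands, undetected on part of the arrays, while the members were detected on every array. The members' results still depended on the handling of the background. Under normexp background correction, 23 of their 29 called values were no longer called and 5 changed sign.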
